A study of Rattus norvegicus with 20 samples.

Results

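miR-672 and miR-466b (rno-miR-672 and rno-miR-466b in the files) were 2 of the 350 rat miRNAs on the Agilent array. Each was read on all 20 arrays of the series, of which 10 held RNA of the soleus and 10 RNA of dorsal root ganglia (DRGs). Both were picked because their signals after nerve injury departed from sham in different ways in the muscle and in the ganglia. The differences from sham given here are therefore a description of the values that chose them, and they carry no test. All rats were adult male Sprague-Dawley, operated on the right leg. Denervation meant that the sciatic nerve had been cut and a segment removed 6 months earlier, with the upper stump tied and buried in thigh muscle. In the entrapment group a silastic tube that did not constrict the nerve had lain around it for 6 months, and in the decompression group such a tube had been taken off after 6 months and the rats were kept for a further 3 months. Each of these groups had 3 arrays per tissue, and the sham operation had 1 array per tissue. The DRGs were those of L4 to L6 on the injured side. The labels call the injury arrays experimental replicates, and the study's methods describe arrays from 3 rats of each group, so a group's spread is taken as that between rats. The methods name 3 rats for sham as well, while 1 sham array per tissue was analysed here, and whether its RNA is from 1 of them or pooled is not stated. A single array gives no spread, and every difference from sham rests on it.

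A miRNA is a short RNA that guides the silencing complex to messenger RNAs, mostly through base pairing of its seed, bases 2 to 8 counted from the 5′ end. Both arms of a hairpin can give a mature miRNA, and the array names here give no arm. Soleus is a slow postural muscle served by the sciatic nerve, and the DRGs hold the cell bodies of its sensory fibres together with their glia. miR-466b belongs to a repeat-rich group of miRNAs encoded within the gene Sfmbt2, and miR-672 is X-linked.

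The mature sequences are printed because the arrays cannot be read without knowing what the names stand for, and because both names have an arm with the same repeat. They are those of RefSeq on GRCr8, 5′ to 3′, with the seed in capitals.

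miR-672-5p: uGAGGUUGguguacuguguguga
miR-672-3p: aCACACAGucgccaucuucga
miR-466b-5p: uAUGUGUGuguguauguccaug
miR-466b-3p: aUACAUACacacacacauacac
miR-466b-2-3p: aUAUACAUacacacauacaca

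Mir672 lies on the minus strand at chrX:73192304-73192383, within the annotated span of Nexmif, a gene on the same strand. Its hairpin of 80 bases is shown with the arms in capitals.

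Mir672 hairpin: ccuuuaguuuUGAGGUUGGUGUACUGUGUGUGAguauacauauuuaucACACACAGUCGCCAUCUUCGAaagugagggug

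miR-466b-5p is encoded at 2 places on the minus strand, chr17:72945547-72945568 in Mir466b-1 and chr17:72942513-72942534 in Mir466b-2, both within Sfmbt2 and on its strand. The copies give the same 5p sequence and different 3p sequences. No arm of miR-672 had the seed of an arm of miR-466b, so the names share no seed. Their 5p arms did share a run of 8 bases, UGUGUGUG, from base 15 in miR-672-5p and from base 3 in miR-466b-5p. This run was searched on the printed strand only, and it occurred in 4 of 693 mature miRNAs in the table (0.577%). The other 2 were miR-466d and miR-32-3p, and the run is in capitals in these lines.

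miR-672-5p: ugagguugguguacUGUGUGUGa
miR-466b-5p: uaUGUGUGUGuguauguccaug
miR-466d: aUGUGUGUGuauguucuuuugu
miR-32-3p: gcaauuuagUGUGUGUGauauu

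Among the relatives chosen by sequence and place, values are given for miR-466c alone. miR-466c, whose gene lies in Sfmbt2 beside the 2 miR-466b genes, was the only neighbour within 100 kb with a name on the array. It was not detected on any of the 10 soleus or 10 DRG arrays, and its background-subtracted signal was between -11.98 and 3.82 in soleus and between -7.16 and -3.27 in the DRGs. No RefSeq hairpin of another miRNA lay within 100 kb of Mir672. The seed of miR-672-5p was shared by 1 other mature miRNA, miR-377-5p (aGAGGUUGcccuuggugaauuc, seed in capitals). The array carried miR-377 and miR-32 under names without an arm, detected on 3 and 10 of the 20 arrays. The name miR-466c gives no arm either, but both of its arms lie near the miR-466b genes. For miR-377 and miR-32 only the arms named here were relatives, so no values are given for them. The array had no name for miR-466d.

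Some properties of the arrays bear on all values of both miRNAs. For each miRNA the scanner files give a total gene signal, an intensity summed over its probes after background subtraction, with a detection call. The 75th percentile of this signal varied 6.20-fold between the soleus arrays, from 409 on sham to 2539 on denervation 2, and 1.62-fold between the DRG arrays. Each array was scaled to this percentile, and the scaled signal is the unit used here unless stated. Of the 45 control features, which hold no rat miRNA, 12 in soleus and 24 in the DRGs had signals that did not overlap between the 4 arrays of sham and denervation and the 6 of entrapment and decompression. Handling of the arrays and injury group cannot be told apart for differences between these sets. In soleus, the files of sham, denervation 1 and denervation 2 were laid out unlike the rest. Among control signals of at least 20, those identical in all digits to one on some other soleus array numbered 11, 12 and 15 on these arrays, 0 to 8 on the remaining soleus arrays and 0 on the DRG arrays. In the DRGs, the table of processed values that was deposited beside the scanner files gave the entrapment and decompression names to each other's scanner arrays. The group names of the scanner files are used. All 6 neuronal miRNAs looked at were detected on every DRG array, and 4 of them (miR-124, miR-9, miR-138 and miR-183) on no soleus array, which parts the tissues. Detection of muscle miRNAs hardly parts them, since in each tissue 4 of the 5 were detected on all 10 arrays, though not the same 4. miR-499 was not detected on soleus sham, and miR-206 was detected on 2 of 3 DRG entrapment arrays. The level of the muscle miRNAs does part the tissues, with a summed signal on one scale for all arrays of 47965 to 299142 in soleus and 261 to 467 in the DRGs.

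In soleus, miR-672 was below detection on sham and was detected on each of the 9 injury arrays. On sham its signal before scaling was 2.35 with an error of 2.23 from the scanner software, a scaled signal of 6.27. After denervation the scaled signals were 53.9, 54.9 and 411.7, after entrapment 24.8, 27.6 and 37.9, and after decompression 42.6, 34.1 and 17.1. Every injury array lay above sham, as was so for 30.6%, 30.6% and 31.2% of the 173 miRNAs tested in soleus (those detected on at least 3 of its arrays) after denervation, entrapment and decompression. The 3 denervation arrays lay above all 6 others, and entrapment and decompression overlapped. Denervation 3 was 7.63 times the lowest denervation array. This array had a low percentile of 413, close to that of sham, and a signal before scaling of 156 against 70.4 and 127 on the other denervation arrays.

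miR-672 in soleus was 17.0-fold the sham signal after denervation, 4.73-fold after entrapment and 4.65-fold after decompression. These folds are approximate and not firm bounds, because sham was below detection and they divide by the signal it did show. Before scaling that signal was 2.35 with an error of 2.23. On the log2 scale the mean differences from sham were 4.09 ± 1.69, 2.24 ± 0.32 and 2.22 ± 0.69 (SD, n = 3 each), approximate in the same way. With a pseudocount in place of the floor they were lower, at 3.62, 1.85 and 1.84. All 9 arrays were at least 2-fold above sham. Of the 173 miRNAs tested in soleus, 15.6% were at least 2-fold higher on each array after denervation, 11.0% after entrapment and 13.3% after decompression. The single denervation array that stood apart set the size of the first difference, which was 3.12 without denervation 3.

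In the DRGs, miR-672 was detected on all 10 arrays and was highest on sham, with a scaled signal of 138.5. It was 87.7, 57.9 and 88.3 after denervation, 101.5, 40.9 and 78.6 after entrapment, and 57.1, 71.0 and 69.0 after decompression. All 9 injury arrays lay below sham and the 3 injury groups overlapped. The mean log2 differences from sham were -0.86 ± 0.35 after denervation, -1.01 ± 0.68 after entrapment and -1.08 ± 0.17 after decompression (SD, n = 3 each). The 2-fold mark was passed on 1 denervation, 1 entrapment and 2 decompression arrays. Over the 219 miRNAs tested in the DRGs, 0.913% were at least 2-fold lower throughout the denervation group, 11.0% throughout entrapment and 13.7% throughout decompression, and miR-672 was not among them in any group. Lower by any amount on each array were 36.5%, 48.4% and 46.6%, with miR-672 among them each time. Ordered from the lowest mean difference it stood 11th of 219 after denervation, 42nd after entrapment and 38th after decompression. In bulk tissue, fewer cells that carry a miRNA and less of it per cell cannot be told apart.

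**Figure D1:**
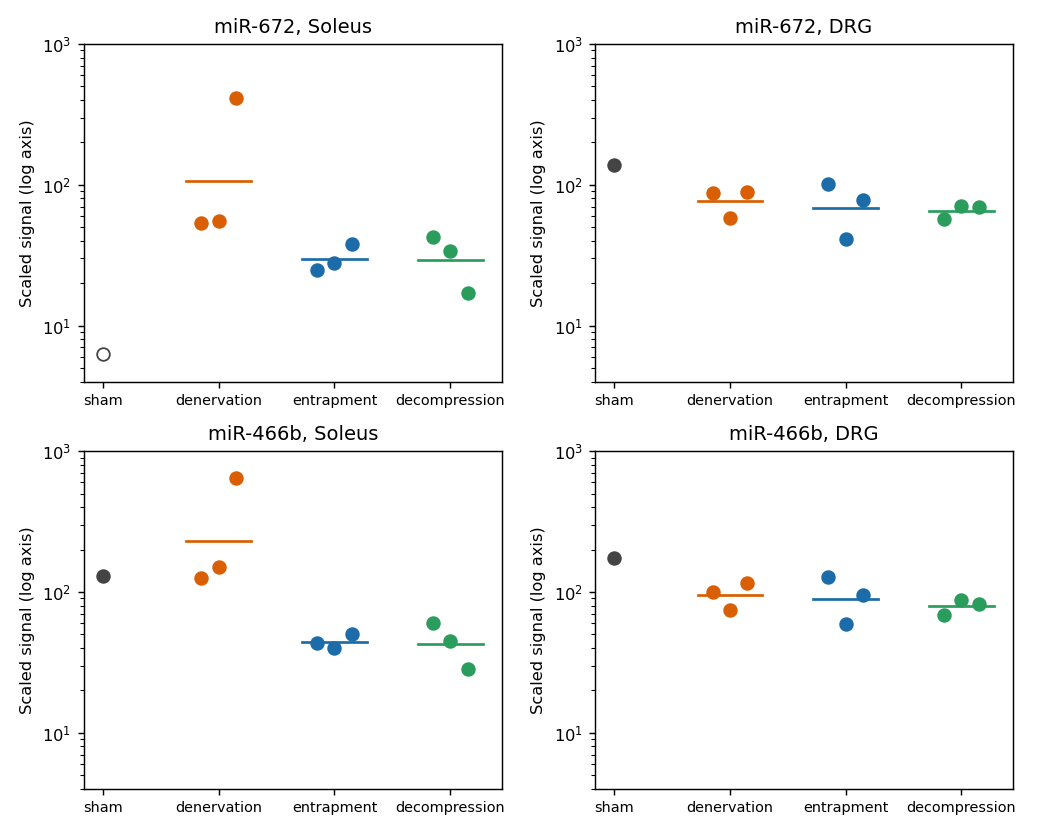
Scaled signal of miR-672 (top) and miR-466b (bottom) in soleus (left) and DRGs (right), on a log axis, with 1 point per array. Filled points were detected, the open point was not, and bars are the means of log2 values over 3 arrays. miR-672 in soleus runs from 6.27 on sham to 411.7 on denervation 3, while in the DRGs sham is the highest array for both miRNAs.

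miR-466b behaved differently in soleus. It was detected on all 10 arrays, with a scaled signal of 130.8 on sham. After denervation it was 126.4, 151.0 and 645.6, so that 2 arrays were close to sham and denervation 3 was 4.94-fold above it. After entrapment it was 43.2, 40.2 and 50.7, and after decompression 60.4, 44.9 and 28.3. All 6 of these arrays lay below sham and below each denervation array, and the 2 groups overlapped. Among the 173 miRNAs, 53.2% lay below sham throughout entrapment, 49.1% throughout decompression, and 12.7% had all sham and denervation arrays above the other 6.

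The mean log2 differences of miR-466b from sham in soleus were 0.82 ± 1.29 after denervation, -1.56 ± 0.17 after entrapment and -1.62 ± 0.55 after decompression (SD, n = 3 each). The difference after denervation was smaller than the spread between arrays, and it was 0.08 without denervation 3. Without scaling it was larger than that spread, at 2.30 ± 0.54 (SD, n = 3), with unscaled log2 differences of 1.75, 2.84 and 2.32, against a median of 1.32 over all 173 miRNAs. After entrapment and after decompression miR-466b was at least 2-fold lower on each of the 3 arrays, as were 27.2% of the 173 tested miRNAs in each group, and it stood 39th and 40th from the lowest. This direction too depended on the scaling. Before scaling, the entrapment signals were 68.8, 58.3 and 34.2 and the decompression signals 59.1, 39.3 and 28.9, on both sides of the sham signal of 49.0, and the unscaled mean log2 differences were 0.074 after entrapment and -0.27 after decompression. Without scaling the median of all 173 miRNAs was itself 1.04 above sham after entrapment and 1.02 after decompression. Under each of the 6 ways of processing, miR-466b was also set against the median of all 173 miRNAs under that way. Relative to it, the log2 difference was between -1.86 and -0.97 after entrapment and between -2.08 and -1.13 after decompression. The lowest values, -1.86 and -2.08, came from the processed table.

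miR-466b in the DRGs resembled miR-672 there. Its scaled signal was 175.4 on sham, 100.1, 75.02 and 116.3 after denervation, 127.5, 59.3 and 94.7 after entrapment, and 69.0, 88.3 and 82.0 after decompression. Again sham was the highest array and the injury groups overlapped. The mean log2 differences from sham were -0.88 ± 0.32 after denervation, -0.97 ± 0.56 after entrapment and -1.15 ± 0.18 after decompression (SD, n = 3 each), with 1, 1 and 2 arrays past 2-fold. It stood 10th, 44th and 34th from the lowest of 219. Of the 219, 36.5%, 48.4% and 46.6% lay below sham on each array after denervation, entrapment and decompression, with miR-466b among them. At least 2-fold lower on each array were 0.913%, 11.0% and 13.7%, and miR-466b was not among them in any group.

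**Figure D2:**
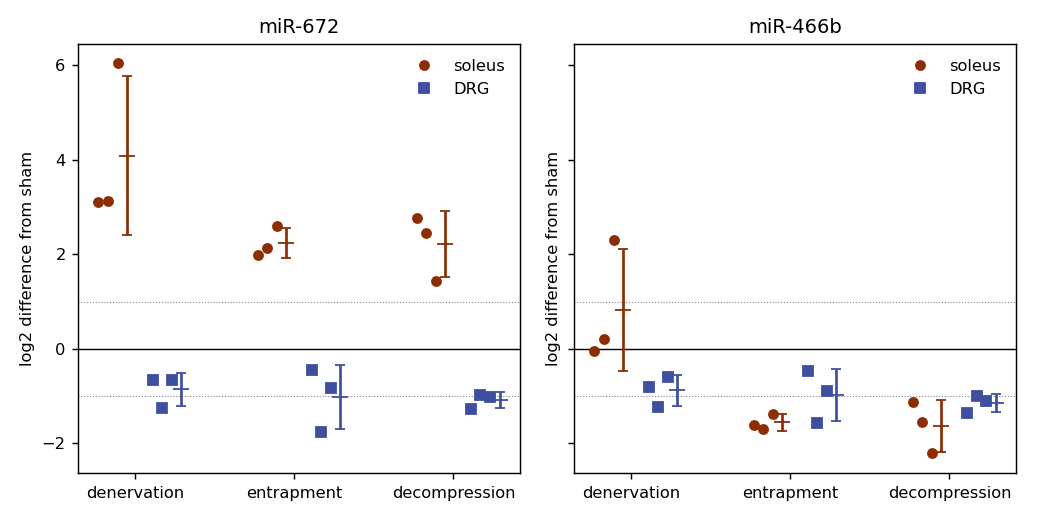
The log2 difference of each array from the sham array of its tissue for miR-672 (left) and miR-466b (right), with circles for soleus and squares for DRGs, means with SD over 3 arrays beside them, and dotted lines at 2-fold. All 9 soleus points of miR-672 are above 0 and all 9 DRG points below it, whereas miR-466b is below 0 on the 6 entrapment and decompression arrays of soleus as well.

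Set side by side, the tissues parted for miR-672 in every injury group, since each soleus array was above its sham and each DRG array below it. Of the 162 miRNAs tested in both tissues, 7.41% had this pattern after denervation, 10.5% after entrapment and 9.88% after decompression. As scaled here, the pattern in all 3 groups at once was seen in 0.617%, which was miR-672 alone, and this count is given for this scaling only. By mean difference, without regard to single arrays, other miRNAs had the same directions in all 3 groups. Among them were miR-207 (3.30, 1.18 and 2.36 in soleus, -0.97, -1.98 and -2.32 in the DRGs) and miR-1 (3.00, 1.39 and 1.55, and -0.32, -0.93 and -0.49). Since miR-672 was chosen for this pattern, the shares are given as the background and nothing is read from them. The 3 groups of a tissue also share 1 sham array, so that a low sham signal in soleus enters all 3 soleus differences. For miR-466b the pattern was present in none of the groups as scaled here. After denervation its presence depended on the processing, since miR-466b joined miR-672 in the pattern without scaling, with quantile scaling, with the percentile over all miRNAs in soleus, and without soleus denervation 1. As scaled here it had 2 of 3 soleus arrays above sham and 3 of 3 DRG arrays below it, while after entrapment and decompression it was lower than sham on every array of both tissues.

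**Figure D3:**
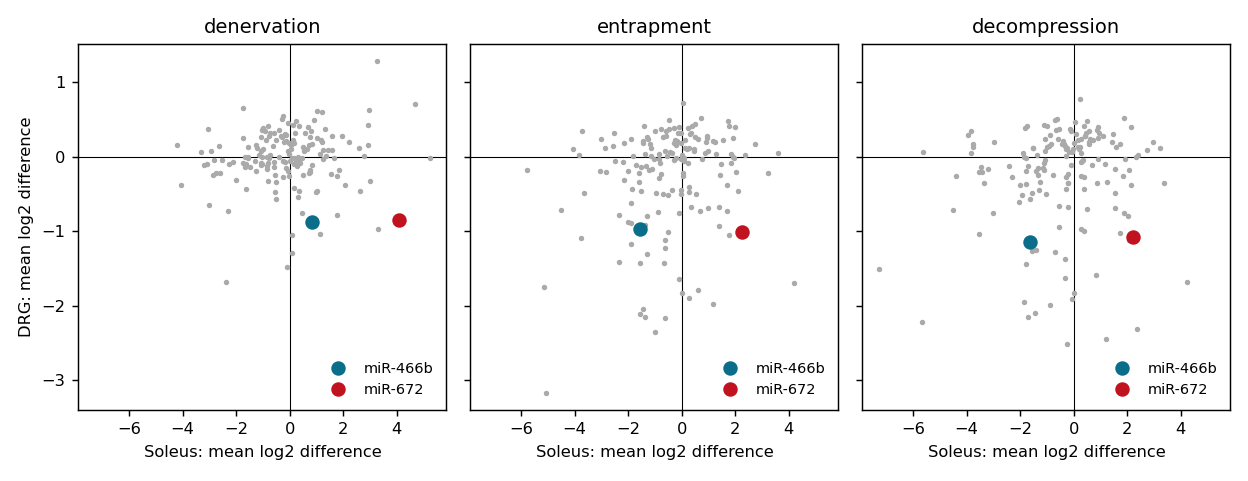
Mean log2 difference from sham in soleus (horizontal) against that in the DRGs (vertical) for the 162 miRNAs tested in both tissues, 1 panel per injury group, with miR-672 in red, miR-466b in blue and the others in grey. miR-672 lies to the lower right in each panel, and miR-466b moves from 0.82 after denervation to -1.56 and -1.62 on the soleus axis.

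The injury groups were also set against each other, without the sham array. In soleus, the denervation arrays of both miRNAs lay above all entrapment arrays, as did 23.1% of the 173 miRNAs, and above all decompression arrays, as did 25.4%. The mean log2 gap of denervation over entrapment was 1.85 for miR-672 and 2.38 for miR-466b, and over decompression 1.87 and 2.44. These are given without a test, because the soleus denervation values are among those that chose the pair. In the DRGs no pair of injury groups was parted for either miRNA, although for 37.9% of the 219 miRNAs the denervation arrays lay above all those of entrapment and for 39.7% above all those of decompression.

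Decompression against entrapment compares the level 3 months after the tube was taken off with that at 6 months of entrapment. The decompression rats had also lived 3 months longer after the tube was placed and had undergone a further operation. Removal of the tube, time and the further operation cannot be told apart here. The values of both groups are among those that chose the pair, so the differences are given with the 95% interval of a limma fit over all miRNAs of a tissue, and with no p for the pair. In soleus the log2 difference of decompression from entrapment was -0.02 for miR-672 (interval -1.69 to 1.64) and -0.07 for miR-466b (interval -1.37 to 1.24). In the DRGs it was -0.07 for miR-672 (interval -0.81 to 0.66) and -0.17 for miR-466b (interval -0.81 to 0.46). For miR-672 the intervals still hold a level up to 3.12-fold higher after decompression in soleus and 1.58-fold higher in the DRGs, where the sign depends on which names are right. The fits take 1 spread per miRNA over all groups of a tissue, denervation included. In soleus the SD after denervation, entrapment and decompression was 1.69, 0.32 and 0.69 for miR-672 and 1.29, 0.17 and 0.55 for miR-466b. The width of the soleus intervals thus owes much to a group outside the comparison. In the same fits 0 of 173 soleus and 0 of 219 DRG miRNAs passed the threshold of an adjusted p under 0.05 (0.0% in both), with 6 and 9 at an unadjusted p under 0.05.

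Placed on one scale over all 20 arrays, set by the 102 miRNAs detected on each of them, the 2 miRNAs were mostly higher in the DRGs. miR-672 had a median of 87.4 in the DRGs (46.4 to 154) and 29.2 in soleus (5.31 to 341). miR-466b had a median of 104.6 in the DRGs (67.2 to 195) and 45.5 in soleus (23.1 to 535). The ranges overlapped for both, while 36.3% of the 234 miRNAs detected on at least 3 arrays were lower on every soleus array than on every DRG array. On the sham arrays alone the DRG level of miR-672 was 154 and its soleus level 5.31, below detection, and for miR-466b the sham levels were 195 and 111. The gap between the medians depended on the scaling. It was 1.58 on the log2 scale for miR-672 and 1.21 for miR-466b, and 0.29 and 0.11 with quantile scaling.

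The miRNAs whose levels ran most closely with the pair differed by tissue. Likeness was Pearson's correlation of log2 scaled signals over the 10 arrays of a tissue, which share their groups, their sham array and the scaling, and it is a description only. In the DRGs miR-466b was the closest of 218 miRNAs to miR-672 and miR-672 the closest to miR-466b, with r = 0.98 between them, against a median r of 0.01 and 0.03 over all miRNAs. miR-539 and miR-206 came next for both, with r of 0.98 and 0.96 for miR-672 and 0.96 and 0.92 for miR-466b. Each of these 2 was detected on 2 of 3 entrapment arrays. miR-206, a muscle miRNA, was faint in the DRGs, with 41.7 on sham, 13.8 to 24.3 after denervation, 4.60 to 21.4 after entrapment and 11.1 to 16.8 after decompression. Its part in the likeness was not tested. The other muscle miRNAs did not all share its direction in the DRGs. Their mean log2 differences from sham after denervation, entrapment and decompression were -0.32, -0.93 and -0.49 for miR-1 and -0.27, -0.88 and -0.48 for miR-133a, on the same side as the pair. They were -0.31, 0.18 and 0.41 for miR-133b and 0.70, 0.39 and 0.20 for miR-499. The summed signal of the list was 322 on sham, 248 to 280 after denervation, 251 to 340 after entrapment and 310 to 395 after decompression.

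In soleus the correlation between the pair was 0.66 over the 10 arrays and 0.96 over the 9 injury arrays. Over the 10 arrays miR-466b was the 12th closest to miR-672, and miR-672 the 23rd closest to miR-466b. The median r over all miRNAs was -0.04 for miR-672 and 0.16 for miR-466b. The closest of 172 miRNAs to miR-672 were miR-1 (r = 0.93), miR-207 (r = 0.84) and miR-499 (r = 0.80), of which miR-1 and miR-499 are made in muscle fibres. miR-207 was not detected on sham and was detected on 2 of 3 arrays each after entrapment and decompression. miR-1 had a scaled signal of 13071 on sham and of 20826 to 300999 on the injury arrays, and miR-499, like miR-672, was not detected on sham. The other muscle miRNAs did not all share this direction in soleus. Their mean log2 differences from sham after denervation, entrapment and decompression were -0.26, -1.91 and -1.57 for miR-133a. They were -1.99, -2.14 and -1.75 for miR-133b and 0.08, 0.61 and 0.82 for miR-206. The closest to miR-466b were miR-487b (r = 0.97), miR-338* (r = 0.95) and miR-539 (r = 0.94). miR-338* was detected on sham and after denervation but on none of the 6 other arrays, and miR-487b was 25.5 on sham, 27.7 to 78.7 after denervation and 11.8 to 16.0 on the other 6 arrays. miR-539 was detected on 2 of 3 entrapment arrays and on no decompression array.

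Other marker lists differed between the soleus arrays too. The muscle list (4 of 5 detected on all arrays) summed to 207581 on sham, 101332 to 360891 after denervation, 59380 to 120942 after entrapment and 104751 to 107977 after decompression. miR-126, made in endothelium and the 1 miRNA of its list, was 379 on sham and 1065 to 1744 on the 9 injury arrays, a direction shared with miR-672. Each array lay above sham for 30.6%, 30.6% and 31.2% of the 173 miRNAs tested in soleus after denervation, entrapment and decompression. The leukocyte list (3 of 4 detected on all arrays) summed to 718 on sham and 497 to 799 after denervation. It summed to 359 to 473 after entrapment and 329 to 463 after decompression, an order shared with miR-466b. All sham and denervation arrays lay above the other 6 for 12.7% of the 173 miRNAs tested in soleus. The members of the list differed. Their mean log2 differences from sham after denervation, entrapment and decompression were 1.34, 0.28 and 0.23 for miR-223. They were -1.04, -1.29 and -1.32 for miR-142-3p, -1.66, -1.99 and -2.29 for miR-142-5p, and 0.08, -0.52 and -0.29 for miR-150. The red blood cell list (2 of 2 detected on all arrays) summed to 1244 on sham and 207 to 2383 on the injury arrays, and the glial list (1 of 2) to 108 and 51.9 to 222. The 6 neuronal miRNAs summed to 0 on sham, 13.8 to 41.8 after denervation, 0 to 9.27 after entrapment and 0 to 31.4 after decompression, with 4 never detected. The part of these markers in the levels of miR-672 and miR-466b was not tested. In the DRGs the neuronal list summed to 4655 on sham and 3942 to 4800 on the injury arrays, the glial list to 7979 and 9813 to 12452, the red blood cell list to 3001 and 686 to 4244, the leukocyte list to 899 and 483 to 1109, and miR-126 was 555 and 474 to 611.

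The processed table gave other values for miR-466b on 2 soleus arrays. Nearly all of its values equal the scanner signal divided by a constant for each array. Of the soleus values with a scanner signal of at least 20, 19 departed from their constant by more than 1%, on 8 of the 10 arrays, and no DRG value did. For miR-672 the constant held on all 10 soleus arrays. For miR-466b it held on 8, but the processed value was 21.7% of the one due on entrapment 3 and 20.8% of it on decompression 1. With the processed values, scaled in the same way, the log2 differences from sham of these arrays were -3.57 and -3.38, in place of -1.37 and -1.11. In the DRGs no value of either miRNA departed from its constant, but the names were exchanged. Under the processed names the miR-672 differences were -1.28, -0.96 and -1.01 for entrapment and -0.82, -0.45 and -1.76 for decompression, and those of miR-466b were -1.35, -0.99 and -1.10 for entrapment and -0.89, -0.46 and -1.56 for decompression. Which of the 2 sources has the right names cannot be told from the files used here, so a difference between these DRG groups carries no settled direction. All 12 of these values lay below sham under either naming.

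**Figure D4:**
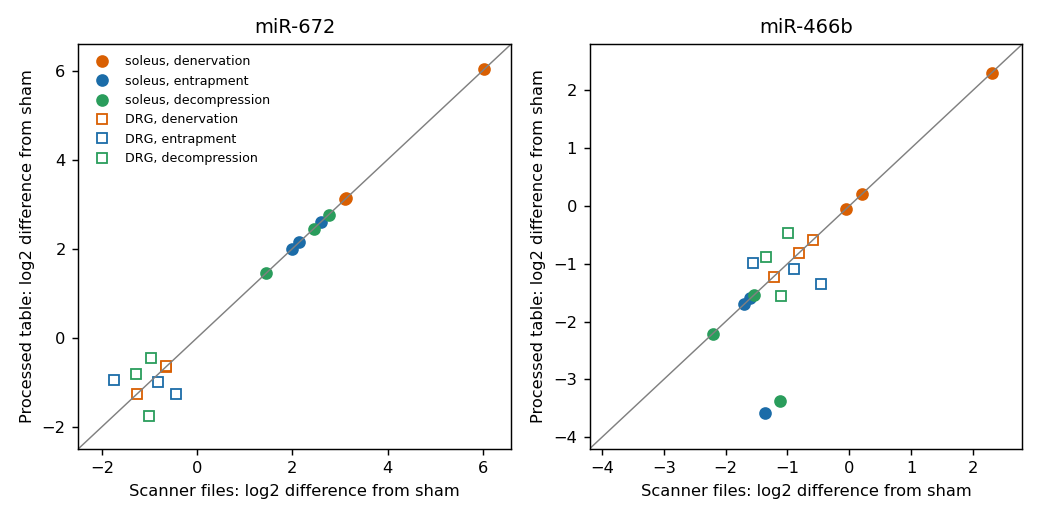
The log2 difference from sham from the scanner files (horizontal) against that from the processed table under its own names (vertical), with filled circles for soleus, open squares for DRGs and the line of equality. Of the soleus points, 2 for miR-466b fall off the line, at -3.57 and -3.38 on the vertical axis, and the 6 DRG entrapment and decompression squares of each miRNA fall off it because their names differ.

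On arrays where the pair was detected, the measurement error given by the scanner software was 7.26% to 17.5% of the signal for miR-672 and 7.39% to 13.6% for miR-466b in soleus, and 7.24% to 10.6% and 7.35% to 9.19% in the DRGs. Replicates of a group differed by up to 7.63-fold in soleus and 2.48-fold in the DRGs.

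**Figure D5:**
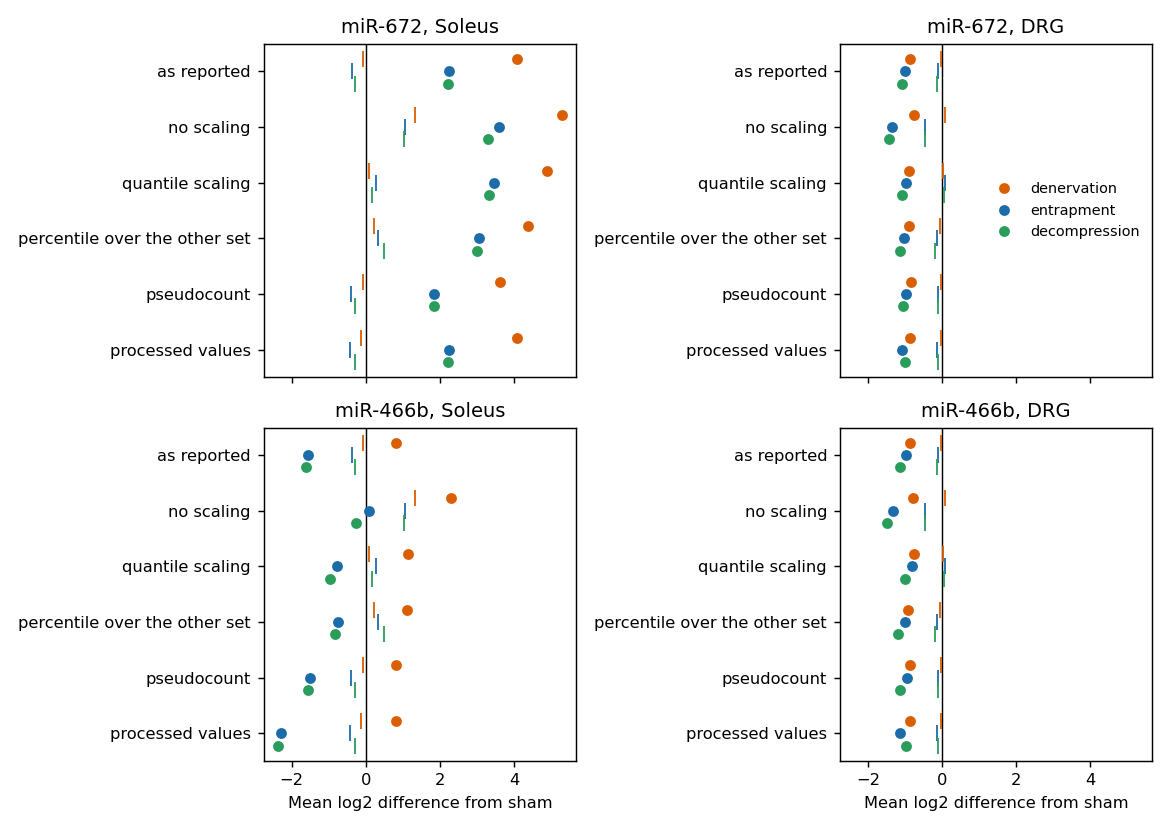
Mean log2 difference from sham (circles) and the median of all tested miRNAs (ticks) under each way of processing, for miR-672 (top) and miR-466b (bottom) in soleus (left) and DRGs (right), coloured by injury group. miR-672 stays above 0 in soleus and both stay below 0 in the DRGs in all 6, while miR-466b after entrapment in soleus runs from -2.29 with processed values to 0.074 without scaling.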

How the data were processed

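Total RNA of soleus and L4 to L6 DRGs was hybridized to 20 one-colour Agilent rat miRNA arrays. The study's methods describe ligation of Cy3, the labels an amplification. The authors deposited, for every array, a total gene signal (a background-subtracted intensity from Agilent Feature Extraction 9.5.3, not normalized between arrays), its error and a detection call, and beside these a table of processed signal values. The methods name LOWESS with rank-consistency filtering and GeneSpring. Arrays were grouped by their labels, and 2 of 350 miRNAs whose names differ between files were left out.

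Scaling divided every array by its 75th percentile, taken in soleus over the 108 miRNAs detected on all 10 arrays and in the DRGs, where most miRNAs were detected, over all 348. A floor of 2.72 (soleus) or 2.28 (DRGs) replaced lower values before log2 was applied. It was the lowest scaled signal with a detection call, as a median across arrays. Tested miRNAs had a detection call on 3 or more of 10 arrays. The limma 3.58.1 fit (lmFit and eBayes in R 4.3.3, two-sided) used the 10 arrays of a tissue and no covariate beside group, leaving 6 residual degrees of freedom, and p-values were adjusted by Benjamini-Hochberg over all tested miRNAs, with a threshold of 0.05. Tested on simulated data for decompression against entrapment, in which 40 miRNAs were shifted by 2 on the log2 scale, it recovered 27 with 0 false calls among 173 in soleus and 38 with 3 false calls among 219 in the DRGs. Sequences and gene names came from RefSeq tables on GRCr8. Plots used matplotlib 3.10.9 (Python 3.11.15). No slide or scan was used as a block, since the files used here do not separate them. With 3 arrays a group, precision is limited by their number.

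The miRNAs named are the pair, relatives by seed, shared repeat or place, the 3 most alike per tissue, and marker lists for muscle, neurons, glia, red blood cells, leukocytes and endothelium. Members and lists were chosen with earlier results of these data known. The alternatives were no scaling, quantile scaling, the percentile over the other set of miRNAs, a pseudocount equal to the floor, the processed values, no filter, a replicate block, only the groups compared, and leaving out single arrays. The exchange of DRG names was added after the values were seen.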

Additional observations from a re-analysis of the deposited data

Results flagged for a closer look

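miR-672 was marked because every soleus array of each injury group lay above its sham and every DRG array below it. The difference between the tissues was not tested. The mean log2 difference from sham in soleus exceeded that in the DRGs by 4.95 after denervation, 3.25 after entrapment and 3.30 after decompression. The pair was chosen for such differences, and the 3 values share the same sham arrays. miR-672 was below detection on the soleus sham array, so its soleus differences are approximate and not firm bounds.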

How the results depend on the processing

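miR-672 stayed above sham in soleus and both miRNAs stayed below it in the DRGs under every alternative run for these means. With single arrays left out, the mean log2 difference from sham of miR-672 in soleus was 3.12 to 4.58 after denervation, 2.06 to 2.37 after entrapment and 1.94 to 2.60 after decompression, and that of miR-466b 0.08 to 1.26, -1.65 to -1.48 and -1.88 to -1.33. In the DRGs it was -0.96 to -0.65, -1.29 to -0.63 and -1.14 to -0.99 for miR-672, and -1.02 to -0.70, -1.23 to -0.67 and -1.22 to -1.04 for miR-466b. Without scaling, miR-466b in soleus was 2.30 after denervation, 0.074 after entrapment (a change of direction) and -0.27 after decompression, miR-672 in soleus was 3.59 after entrapment and 3.29 after decompression, and in the DRGs after decompression they were -1.43 for miR-672 and -1.49 for miR-466b. Quantile scaling gave 3.47 and 3.31 for miR-672 and -0.79 and -0.96 for miR-466b in soleus after entrapment and decompression, and the percentile over all miRNAs gave 3.04 and 3.00, and -0.75 and -0.84. A pseudocount gave 1.85 for miR-672 after entrapment in soleus, and the processed values gave -2.29 and -2.38 for miR-466b. Exchanging the DRG names moved no mean by more than its SD.

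The counts of miRNAs past the 2-fold rule moved more. In soleus, 27 were higher and 32 lower after denervation, 19 and 47 after entrapment, and 23 and 47 after decompression. Lower after denervation were 4 without scaling and 49 without the filter. After entrapment 60, 40 and 40 were higher and 13, 23 and 21 lower without scaling, with quantile scaling and with the percentile over all miRNAs, and 72 lower without the filter. After decompression 65, 40 and 41 were higher and 20, 28 and 21 lower in the same order. In the DRGs quantile scaling gave 2 higher after denervation, 2 higher and 11 lower after entrapment, and 4 higher and 11 lower after decompression, against 1, 0 and 24, and 0 and 30, and no scaling gave 46 lower after decompression. Leaving out 1 array gave 2 to 4 lower after denervation and 25 to 37 after entrapment in the DRGs. It eases a rule that each array must pass, so over the same tested miRNAs such counts, here and below, cannot fall. The miRNAs higher in soleus and lower in the DRGs numbered 12, 17 and 16 after denervation, entrapment and decompression. They numbered 22 after denervation without the filter and 12 to 19 with 1 array left out, and after entrapment and decompression 60 and 68 without scaling and 27 and 29 with the other percentile sets. The gap of DRG over soleus medians with quantile scaling was 0.29 for miR-672 and 0.11 for miR-466b.

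Decompression against entrapment gave 0 miRNAs past the threshold in both tissues under all 14 alternatives. Both groups hold the same replicate numbers, so a replicate block could not change the log2 difference. It was -0.02 for miR-672 and -0.07 for miR-466b in soleus and -0.07 and -0.17 in the DRGs with or without the block. The block can change the spread alone, and it changed no call. Same-numbered entrapment and decompression arrays deviated together with r of -0.20 to 0.10 in soleus and -0.09 to 0.44 in the DRGs, and 1 and 2 of 6 arrays correlated best with their own number. In the DRGs the processed decompression 1, 2 and 3 were the scanner arrays entrapment 3, 1 and 2. Which DRG arrays are same-numbered is therefore as unsettled as their group names.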
